A study of Mus musculus with 4 samples.

Results

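The genes described here mark the supporting cells of the heart wall: fibroblasts, pericytes and smooth muscle cells. They were taken from a list of 36 symbols by pairing each symbol, or a synonym of it, with probes in the platform's annotation and by asking for a value on all 4 arrays. Of the 36, 34 met this rule, among 14039 genes with such a value in all. These are 19 of 20 fibroblast genes, 9 of 10 pericyte genes and all 6 smooth muscle genes. Lgals1, which encodes galectin 1, and Ednra, the endothelin A receptor, had no probe paired with them here and were not analysed.

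The series holds 1 single-channel array for each of 4 groups of male C57BL/6 mice, each of total RNA from the left ventricle. The groups were STIM1KO TAC, STIM1KO sham, WT TAC and WT sham. STIM1KO stands for mice deficient in STIM1, the calcium sensor of the endoplasmic reticulum, and WT for wild type. TAC is transverse aortic constriction, in which a ligature tied over a wire of 0.3 mm narrows the aortic arch and loads the left ventricle with pressure, and sham mice had the operation without the ligature. Surgery was at 10 weeks of age, and the hearts were taken 4 weeks later, at 14 weeks. Heart weight over body weight, averaged by the submitters and given without a unit, was 4.9 for STIM1KO TAC, 4.5 for STIM1KO sham, 6.7 for WT TAC and 4.1 for WT sham. The sources used here do not say whether 1 mouse or a pool was hybridised, whether the STIM1KO mice were homozygous, or in which cells the gene was lost. The question is how these cell type genes differ with STIM1 deficiency and with pressure overload.

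Fibroblasts hold the matrix scaffold of the ventricle between the myocytes and are marked by the PDGF receptor alpha and the transcription factor TCF21. Pericytes wrap capillaries, depend on the PDGF receptor beta and Notch 3, and carry an ATP-sensitive potassium channel made of Kir6.1 (Kcnj8) and SUR2 (Abcc9). Smooth muscle cells surround the larger vessels and contract when calcium activates myosin light chain kinase. Few of these genes belong to 1 cell type alone: Vim, Cd34 and Mcam are also expressed by endothelial cells, Gsn and Abcc9 also by cardiomyocytes, S100a4 also by leukocytes and Nr2f2 also by venous endothelium.

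Values below are quantile-normalized intensities in arbitrary units and differences of their log2 values, where 1 is 2-fold. With 1 array a group there is no replicate and no error between animals, no test was run, and every difference compares arrays. Of the 34 genes, 27 passed the filter on dim genes, a geometric mean of at least 29.3 over the 4 arrays, as did 7020 genes in all. Fap lay just inside it with a geometric mean of 32.0, and Ddr2 just outside with 23.8. Below it were Wt1, Tbx18 and Ddr2 among the fibroblast genes, Cspg4 and Notch3 among the pericyte genes, and Cnn1 and Myh11 among the smooth muscle genes. Counts and medians are over the 27, and the dim genes are given by their values.

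The STIM1KO TAC array stood apart from the others. It correlated across the 7020 genes at 0.974 with STIM1KO sham, 0.974 with WT TAC and 0.963 with WT sham, while the other 3 arrays correlated with each other at 0.987 to 0.990. The SD of the log2 differences over all genes was 0.42 between the TAC arrays and in the STIM1KO response, against 0.29 between the sham arrays and 0.25 in the WT response. The same absolute difference is therefore more common in any comparison that holds STIM1KO TAC. Stim1 had 13.8 on STIM1KO TAC and 20.7 on STIM1KO sham, against 33.9 on WT TAC and 41.6 on WT sham, so it was lower on both STIM1KO arrays. Its mean lies below the filter level, and the sources used here do not place its probe relative to the mutation. Cardiomyocyte markers fit the labelled tissue, with Tnnt2 at 33603 to 58086 and Myh6 at 12306 to 16894.

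**Figure D1:**
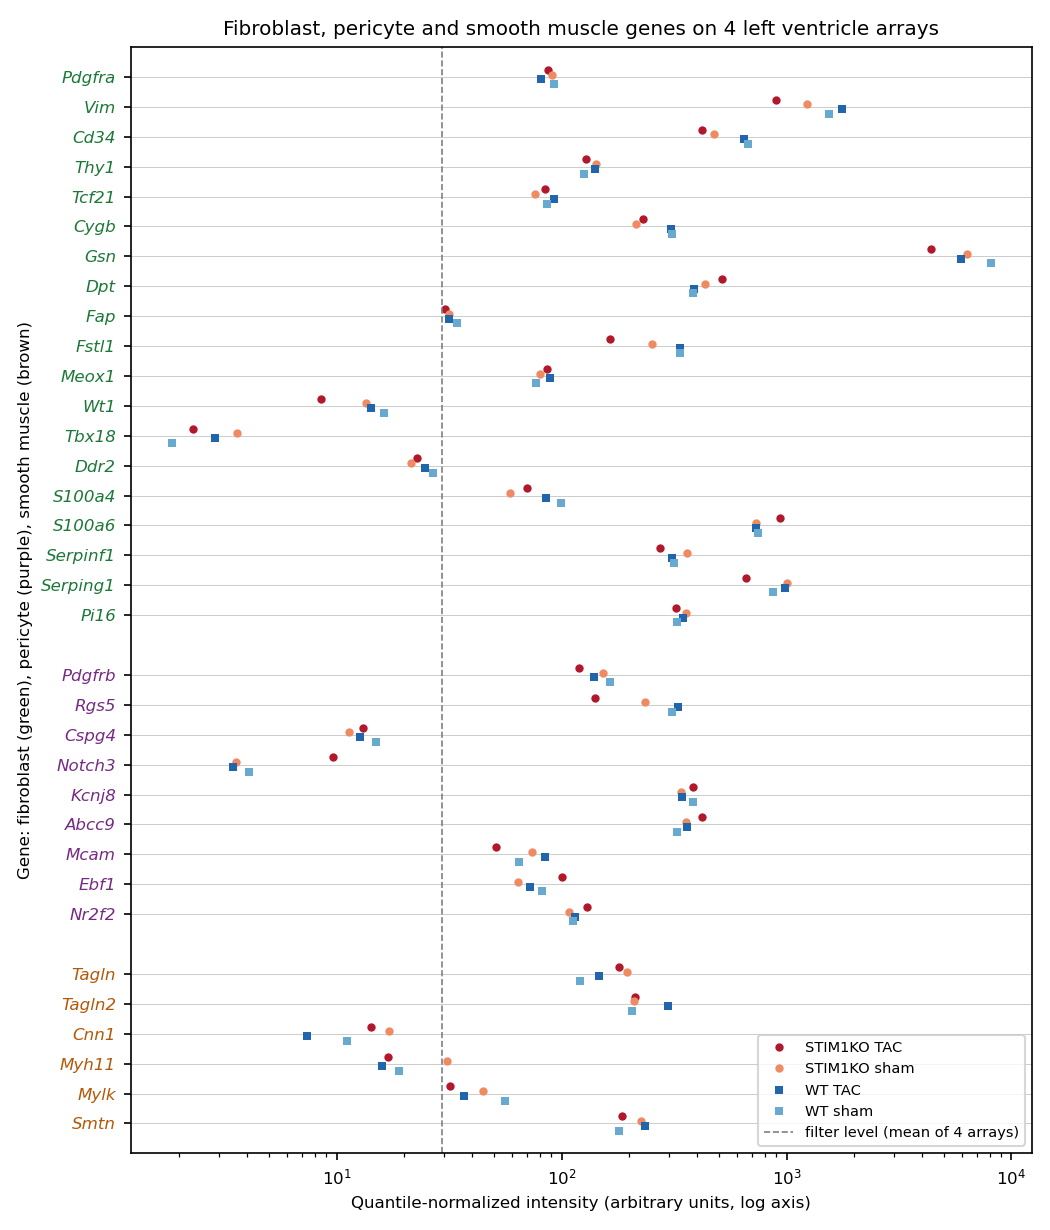
Quantile-normalized intensity (log axis) of each gene on the 4 arrays, with 1 point for each array and genes grouped as fibroblast, pericyte and smooth muscle from top to bottom. The dashed line marks the filter level of 29.3. Fstl1, Vim and Rgs5 lie lowest on STIM1KO TAC, with 165, 894 and 140.3 there.

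Fibroblast genes were mostly lower on the STIM1KO TAC array than on WT TAC. Of 16, 13 were below 0 and 3 above, with a median log2 difference of -0.16, against 0.012 over all 7020 genes, of which 48.8% were below 0. The fibroblast median was -0.25 with each array centred on its median, where that of all genes was -0.047. With a filter at the 75th percentile it was -0.41, and that of all genes 0.011. At 1.5-fold, 3 of the 16 were lower and none higher, while 8.22% of all genes were lower and 6.31% higher by that much. Fstl1, Vim and Cd34 were the 3. In whole ventricle RNA, fewer cells of a type and less of a gene's RNA per cell cannot be told apart. Endothelial markers were lower between the same arrays, with 12 of 14 below 0 and a median of -0.29, and their part in the fibroblast values was not tested.

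Fstl1, a secreted glycoprotein of the follistatin family made by cardiac fibroblasts and other stromal cells, had 165 on STIM1KO TAC and 253 on STIM1KO sham, against 338 on WT TAC and 336 on WT sham. Both STIM1KO arrays were below both WT arrays, and the WT arrays were level. The difference was -1.04 between the TAC arrays, which is 2.05-fold and the 60th lowest of 7020, and -0.41 between the sham arrays. Vim, the intermediate filament protein of mesenchymal cells, followed the same order of genotypes, at 894 on STIM1KO TAC and 1232 on STIM1KO sham, against 1757 on WT TAC and 1552 on WT sham. Its difference of -0.98 between the TAC arrays, the 86th lowest, was just short of 2-fold and passed it with the values as deposited or with each array centred on its median. Between the sham arrays it was -0.33.

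Cd34, a surface sialomucin of stromal and endothelial cells, had 420.2 on STIM1KO TAC and 478 on STIM1KO sham, against 649 on WT TAC and 674 on WT sham. Its difference was thus of similar size after both operations, -0.63 between the TAC arrays and -0.50 between the sham arrays. Cygb, the oxygen-binding globin of fibroblasts, also separated the genotypes, at 231 and 214 on STIM1KO TAC and STIM1KO sham, against 308 and 309 on WT TAC and WT sham. Its differences were -0.41 after TAC and -0.53 after sham, both short of 1.5-fold.

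Gsn, the brightest fibroblast gene, encodes the actin-severing protein gelsolin. It had 4373 on STIM1KO TAC and 6332 on STIM1KO sham, against 5949 on WT TAC and 8111 on WT sham. It was lower with TAC in both genotypes and lower in STIM1KO after both operations: -0.53 in the STIM1KO response, -0.45 in the WT response, -0.44 between the TAC arrays and -0.36 between the sham arrays. The WT response of Gsn was the 241st lowest of 7020 and the STIM1KO response the 639th lowest.

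Serping1, the inhibitor of complement component C1, had 663 on STIM1KO TAC and 1005 on STIM1KO sham, against 986 on WT TAC and 867 on WT sham. The STIM1KO TAC value lay apart below the other 3. Between the TAC arrays the difference was -0.57, and -0.67 with each array centred on its median, which is past 1.5-fold. Serpinf1, a secreted serpin known as pigment epithelium-derived factor, had its lowest value on the same array, 273, and its highest on STIM1KO sham, 361, against 310.3 on WT TAC and 316 on WT sham.

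Pdgfra, Tcf21, Meox1, Thy1, Fap and Pi16 spanned less over the 4 arrays than Fstl1, Vim, Gsn and Cd34. The highest values of Fstl1, Vim, Gsn and Cd34 were 2.05-fold, 1.97-fold, 1.85-fold and 1.60-fold above their lowest. The genes of this paragraph were grouped after their values were seen. Pdgfra had 86.9 on STIM1KO TAC and 90.3 on STIM1KO sham, against 81.2 on WT TAC and 92.4 on WT sham, so the highest was 1.14-fold above the lowest. Tcf21, the basic helix-loop-helix factor of the fibroblast lineage, spanned 1.21-fold, with 84.2 and 76.3 on STIM1KO TAC and STIM1KO sham, against 92.6 and 86.3 on WT TAC and WT sham. Meox1, a homeobox factor of activated fibroblasts, spanned 1.15-fold, and Thy1, Fap and Pi16, a surface glycoprotein, a serine protease and a peptidase inhibitor of adventitial fibroblasts, each spanned 1.11-fold to 1.13-fold. Pdgfra, Tcf21 and Meox1 differed by 0.099, -0.14 and -0.040 between the TAC arrays, while Fstl1 and Vim differed by about 2-fold there.

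Dpt and S100a6 lay above WT after TAC. Dpt, which encodes the matrix protein dermatopontin, had 514 on STIM1KO TAC and 435 on STIM1KO sham, against 388 on WT TAC and 385 on WT sham, so that both STIM1KO arrays were above both WT arrays. Its difference was 0.41 between the TAC arrays and 0.17 between the sham arrays. S100a6, a small calcium-binding protein, had 935 on STIM1KO TAC and 732 on STIM1KO sham, against 732 on WT TAC and 743 on WT sham. S100a4, which lies close to S100a6 on chromosome 3 with 1 protein-coding gene between them, did not share this pattern. It had 70.5 on STIM1KO TAC and 58.8 on STIM1KO sham, against 84.9 on WT TAC and 99.2 on WT sham. Its difference of -0.75 between the sham arrays was the 89th lowest of 7020 and the only one among the fibroblast genes past 1.5-fold there, while 2.74% of all genes were lower by that much.

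Between the sham arrays, 10 of 16 fibroblast genes were below 0, beside 49.8% of all genes. The median was -0.072, or -0.12 to -0.021 under the alternatives run, against 0.00061 over all genes. Endothelial markers were below 0 in 13 of 14 and macrophage markers in 10 of 11, with medians of -0.34 and -0.21, and their part was not tested. Over both operations, 8 fibroblast genes were below WT on both STIM1KO arrays: Vim, Cd34, Tcf21, Cygb, Gsn, Fap, Fstl1 and S100a4. Dpt alone was above on both, beside 31.7% of all genes. These 8 of 16 are 50% of the class, beside 30.4% of all genes that were lower in both comparisons, which share no array.

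Over all genes the responses to TAC differed in spread, with an SD of 0.25 in WT and 0.42 in STIM1KO. In WT no fibroblast gene reached 1.5-fold either way, beside 2.85% of all genes. The median was 0.00015, and 8 of 16 lay on each side of 0. In STIM1KO the median was -0.10, or -0.072 to -0.18 under the alternatives run, with 10 of 16 below 0 beside 50.5% of all genes. There Fstl1 (-0.62) and Serping1 (-0.60) were lower by 1.5-fold and none was higher, while 7.11% of all genes were lower and 7.31% higher. At 1.5-fold either way, these 2 of 16 are near the 14.4% of all genes. The fibroblast median in the WT response lay between -0.0074 with no filter and 0.058 with the values as deposited, so it has no direction.

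Among the dim fibroblast genes, Wt1, a zinc finger factor of the epicardium, had 8.53 on STIM1KO TAC and 13.5 on STIM1KO sham, against 14.2 on WT TAC and 16.2 on WT sham. Tbx18, another epicardial factor, stayed between 1.85 and 3.59, under the first quartile of the deposited values of every array, and Ddr2, a collagen receptor, between 21.5 and 26.7. The order of the Tbx18 values carries little weight at this level.

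Promoters of the 3 genes with the lowest differences between STIM1KO TAC and WT TAC are shown because these 3 lay farthest from 0 in that comparison among the 27 genes above the filter. Each is the RefSeq window of 300 bases in build GRCm38.p6 around the gene's start, written on the gene's own strand, which is the plus strand for all 3. Capitals mark matches to the motifs searched, on both strands: TATAAA of the TATA box, CAGCTG as an E-box form, TGGGAA of the Notch effector RBPJ, GGAATG of TEAD factors, GGGCGG of SP1 and, by name, the CArG box of serum response factor. Rgs5 lies at chr1:169655251-169655550, Fstl1 at chr16:37776805-37777104 and Vim at chr2:13574061-13574360.
Rgs5: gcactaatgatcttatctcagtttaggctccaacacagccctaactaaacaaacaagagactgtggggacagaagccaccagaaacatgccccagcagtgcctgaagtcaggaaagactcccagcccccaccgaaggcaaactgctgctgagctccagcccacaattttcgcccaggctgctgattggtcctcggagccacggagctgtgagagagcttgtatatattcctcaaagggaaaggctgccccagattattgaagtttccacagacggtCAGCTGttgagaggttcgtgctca
Fstl1: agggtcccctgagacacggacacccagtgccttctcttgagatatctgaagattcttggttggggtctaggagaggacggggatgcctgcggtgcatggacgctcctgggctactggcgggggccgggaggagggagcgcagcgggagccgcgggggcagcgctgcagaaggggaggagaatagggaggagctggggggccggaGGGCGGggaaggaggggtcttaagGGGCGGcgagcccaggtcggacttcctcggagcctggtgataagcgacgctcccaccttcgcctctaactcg
Vim: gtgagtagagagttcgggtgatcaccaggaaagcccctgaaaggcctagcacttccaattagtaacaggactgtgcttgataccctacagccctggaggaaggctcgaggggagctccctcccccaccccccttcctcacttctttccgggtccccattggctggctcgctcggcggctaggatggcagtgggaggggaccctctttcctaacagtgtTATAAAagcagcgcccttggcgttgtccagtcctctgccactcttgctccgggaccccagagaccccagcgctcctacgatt
The 3 windows shared none of these motifs. Vim holds a TATAAA beginning 32 bases before the start, Fstl1 holds GGGCGG at 46 and 22 bases before it, and Rgs5 holds 1 CAGCTG, which reads the same on both strands, at base 27 after it. The G and C content was 52.3% for Rgs5, 66.7% for Fstl1 and 59.3% for Vim.

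Of the 36 genes, 26 had a promoter in the table. TATAAA was found in 4 of 13 fibroblast genes (Ddr2, Dpt, S100a4 and Vim) and in none of 9 pericyte and 4 smooth muscle genes, while 13.6% of all 32851 windows hold it. GGAATG was found in 3 of 4 smooth muscle genes (Mylk, Smtn and Tagln2), in 1 of 9 pericyte genes (Abcc9) and in none of 13 fibroblast genes, beside 14.7% of all windows. CAGCTG occurred in 5 of the 26, TGGGAA in 10 and GGGCGG in 8, beside 16.3%, 25.6% and 35.7% of all windows. No window of the 26 held a CArG box, and 1.63% of all windows do. A gene was counted if any of its windows held the motif, while the shares are of single windows. Counts and shares are therefore not like for like. Tagln and Myh11, smooth muscle genes, were not in the promoter table.

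Pericyte genes did not move as a block. Between the TAC arrays, 4 of 7 differences were positive and 3 negative, beside 51.1% of all genes above 0. Their median was 0.16, or 0.063 with each array centred on its median, where that of all genes was -0.047. The class held both the lowest and the highest difference of all 27 genes, -1.23 for Rgs5 and 0.46 for Ebf1. A second, dimmer Ebf1 probe differed by 0.066 there, and with the mean over its probes Ebf1 was 0.26, below the 0.41 of Dpt. At 1.5-fold, Rgs5 and Mcam were lower and none was higher, while 8.22% of all genes were lower and 6.31% higher. All 7 had either their lowest or their highest value on STIM1KO TAC: Pdgfrb, Rgs5 and Mcam their lowest, and Kcnj8, Abcc9, Ebf1 and Nr2f2 their highest. Of all genes, 36.1% had their lowest and 37.4% their highest value there.

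Rgs5, a GTPase-activating protein that curbs G protein signals and a standard pericyte marker, had 140.3 on STIM1KO TAC and 236 on STIM1KO sham, against 329 on WT TAC and 310.1 on WT sham. The order was that of Fstl1, with both STIM1KO arrays below both WT arrays. Its difference between the TAC arrays was 2.34-fold, the 28th lowest of 7020, and -0.40 between the sham arrays. In response to TAC it differed by -0.75 in STIM1KO and 0.084 in WT. Together with Fstl1 it made 2 of 27 genes at 2-fold lower between the TAC arrays, with none higher, while 1.08% of all genes were lower and 0.883% higher by that much.

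Mcam, the adhesion molecule CD146 of mural and endothelial cells, had 51.4 on STIM1KO TAC and 73.6 on STIM1KO sham, against 84.3 on WT TAC and 64.9 on WT sham. Here the genotypes were not separated, since the STIM1KO sham value lay between the WT values. Its difference was -0.71 between the TAC arrays, -0.52 in the STIM1KO response and 0.38 in the WT response. Pdgfrb, the receptor through which endothelial PDGF recruits pericytes, had 119 on STIM1KO TAC and 154 on STIM1KO sham, against 140 on WT TAC and 165 on WT sham. It was lower with TAC in both genotypes, by -0.37 in STIM1KO and -0.24 in WT, and lower in STIM1KO after both operations.

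The subunits of the vascular potassium channel varied little. Kcnj8, the pore, had 386 on STIM1KO TAC and 339.6 on STIM1KO sham, against 344 on WT TAC and 384 on WT sham. Abcc9, the sulphonylurea receptor, had 422 on STIM1KO TAC and 356 on STIM1KO sham, against 362 on WT TAC and 325 on WT sham. The genes are next to each other on chromosome 6, and between the TAC arrays they differed by 0.16 and 0.22. Neither shared the direction of Rgs5 there.

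Ebf1, a transcription factor of mural cells and B lymphocytes, had 99.98 on STIM1KO TAC and 63.8 on STIM1KO sham, against 72.7 on WT TAC and 82.3 on WT sham. Its difference of 0.65 in the STIM1KO response was the only one past 1.5-fold higher among the 27 genes, while 7.31% of all genes were. A second, dimmer Ebf1 probe differed by 0.48 there and by 0.14 in the WT response, where the brighter probe differed by -0.18. With the mean over both probes the STIM1KO response of Ebf1 was 0.56, short of 1.5-fold. Nr2f2, the orphan nuclear receptor COUP-TFII, had 129 on STIM1KO TAC and 108 on STIM1KO sham, against 115 on WT TAC and 112 on WT sham, and its second probe was higher on STIM1KO TAC as well, by 0.50 against WT TAC.

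Of the dim pericyte genes, Notch3, the Notch receptor of mural cells, had 9.68 on STIM1KO TAC and 3.59 on STIM1KO sham, against 3.46 on WT TAC and 4.08 on WT sham. The 3 lower values lie under the first quartile of the deposited values of their arrays, 5.43 to 5.64, and a ratio of values this dim is imprecise. With no filter Notch3 would be the 1 gene at 2-fold higher between the TAC arrays, and the 1 gene at 2-fold in the STIM1KO response, beside 5.8% of all unfiltered genes. It and Tbx18 would be the 2 in the difference of responses, beside 8.59%. Cspg4, the proteoglycan NG2, stayed between 11.4 and 14.9. Between the sham arrays, the pericyte median was -0.10, with 5 of 7 below 0 and none at 1.5-fold. Of all genes, 49.8% were below 0 there and 3.96% at 1.5-fold either way. With no filter, 7 of 9 pericyte genes were below 0, with a median of -0.18. In the WT response the pericyte median was 0.030 and turned to -0.16 with no filter, and in the STIM1KO response it was 0.18.

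**Figure D2:**
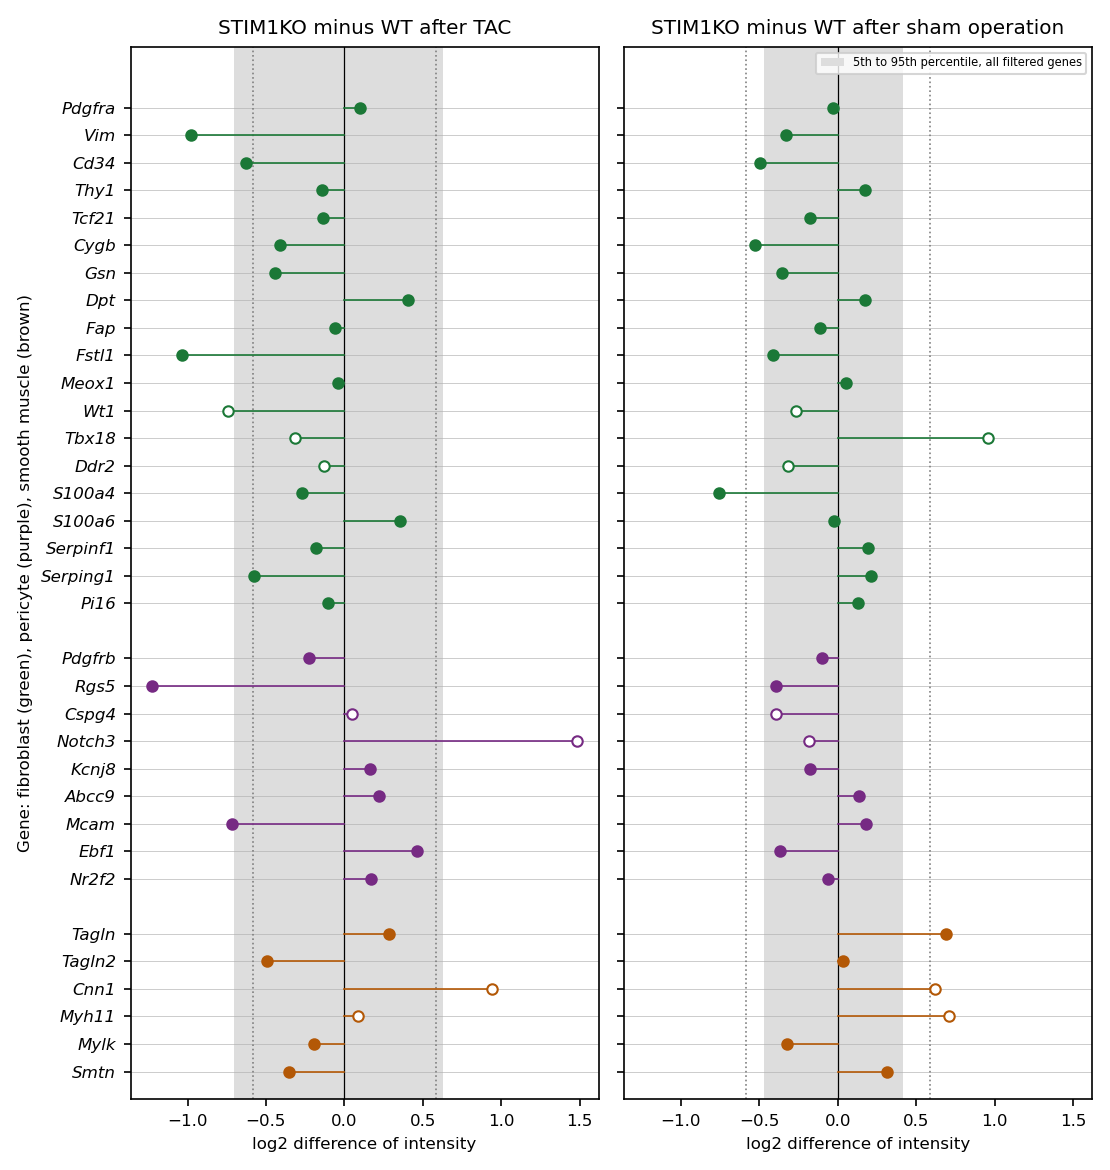
Log2 difference of STIM1KO minus WT for each gene, after TAC on the left and after the sham operation on the right, in green for fibroblast, purple for pericyte and brown for smooth muscle genes. Open circles are genes below the filter, dotted lines mark 1.5-fold and the grey band spans the 5th to 95th percentile of all 7020 genes. Rgs5 (-1.23), Fstl1 (-1.04) and Vim (-0.98) lie farthest left after TAC, and Tagln (0.69) lies right of the band after sham.

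Most smooth muscle genes had higher values on STIM1KO sham than on WT sham. Of 4 above the filter, 3 were above 0, with a median of 0.17, while 50.1% of all genes were above 0 and their median was 0.00061. Of all 6, 5 were above 0, with a median of 0.47, and with the filter at the 75th percentile the median was 0.31. Tagln was past 1.5-fold, as were 1.23% of all genes. Cardiomyocyte markers, among them genes of the contractile apparatus, were above 0 in 9 of 12 between these arrays, with a median of 0.14, and their part was not tested. Between the TAC arrays 3 of the 4 were below 0, with a median of -0.27. Over all 6, 3 were below 0 and 3 above, with a median of -0.054.

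Tagln, the actin-binding protein transgelin of contractile smooth muscle, had 179 on STIM1KO TAC and 196 on STIM1KO sham, against 147 on WT TAC and 121 on WT sham. Both STIM1KO arrays were above both WT arrays. The difference between the sham arrays, 0.69 or 1.61-fold, was the 41st highest of 7020. Between the TAC arrays it was 0.28.

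The contractile genes Cnn1 and Myh11 lay below the filter, and their values are given as a description. Cnn1, calponin 1, had 14.2 on STIM1KO TAC and 17.2 on STIM1KO sham, against 7.39 on WT TAC and 11.2 on WT sham. Myh11, the smooth muscle myosin heavy chain, had 17.0 on STIM1KO TAC and 31.1 on STIM1KO sham, against 16.0 on WT TAC and 19.01 on WT sham. Between the sham arrays Cnn1 differed by 0.62 and Myh11 by 0.71. With the offset before log2 these were 0.45 and 0.58, both short of 1.5-fold, as was Cnn1 with the values as deposited (0.56). Cnn1 was above WT after both operations, while Myh11 was high on the STIM1KO sham array and about level on the other 3.

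Mylk, myosin light chain kinase, went the other way. It had 32.1 on STIM1KO TAC and 44.7 on STIM1KO sham, against 36.7 on WT TAC and 55.9 on WT sham. It was lower with TAC in both genotypes, by -0.48 in STIM1KO and -0.61 in WT. The WT response was the 78th lowest of 7020 and the only one of the 27 genes at 1.5-fold in WT, where 1.3% of all genes were lower by that much. The WT response of Mylk was just short of 1.5-fold with the values as deposited (-0.58) and with an offset before log2 (-0.54).

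Tagln2, the more widely expressed transgelin, and Smtn, smoothelin of contractile smooth muscle, were highest on WT TAC, as were 16.9% of all genes. Tagln2 had 212 on STIM1KO TAC and 211 on STIM1KO sham, against 299 on WT TAC and 206 on WT sham, so that 1 array lay above 3 level ones. Its WT response of 0.54 was the 139th highest of 7020, or 0.59 and past 1.5-fold with the values as deposited. Smtn had 185 on STIM1KO TAC and 225 on STIM1KO sham, against 236 on WT TAC and 181 on WT sham. It differed by -0.28 in the STIM1KO response and 0.38 in the WT response.

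**Figure D3:**
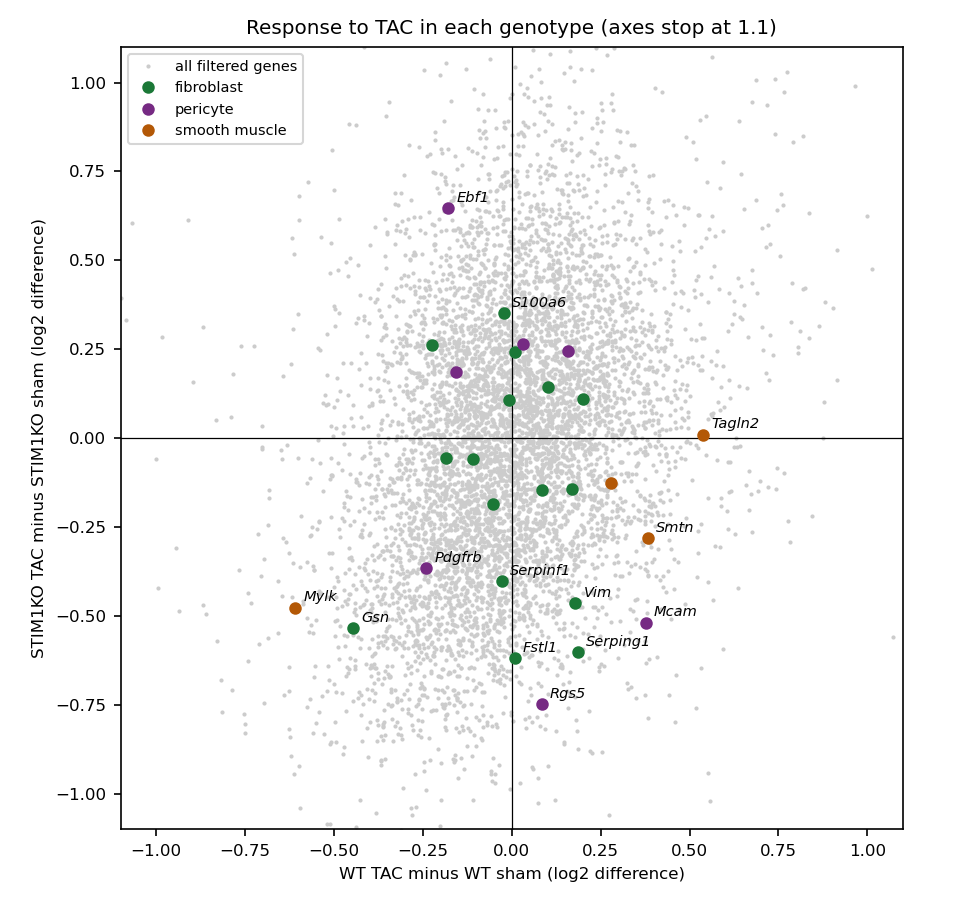
Log2 difference of TAC minus sham in WT (horizontal) and in STIM1KO (vertical) for the 27 genes above the filter, coloured by class, over all filtered genes in grey. The 2 axes share no array. Rgs5, Serping1, Mcam, Vim, Smtn and Fstl1 lie right of 0 and below 0, with 0.0082 for Fstl1 in WT.

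When the WT response was subtracted from the STIM1KO response, 6 of the 27 genes were lower by 1.5-fold or more and 1 higher, while 5.94% of all genes were lower and 8.16% higher. The 6 were Mcam (-0.90), Rgs5 (-0.83), Serping1 (-0.79), Smtn (-0.67), Vim (-0.64) and Fstl1 (-0.63), and the 1 was Ebf1 (0.83). In all 6 the STIM1KO response was below 0 and the WT response above it. Over the 27, 9 genes had this pair of signs, which is 33.3%, beside 18.7% of all genes. They were Thy1, Pi16 and Tagln beside the 6. With 1 array a group the difference of responses could not be tested, and it rests on the STIM1KO TAC array, which stood apart. Without that array the genotypes can be compared after sham only, where Rgs5, Fstl1 and Vim were lower by 0.40, 0.41 and 0.33, while Mcam, Serping1 and Smtn were higher by 0.18, 0.21 and 0.31.

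In the WT response the smooth muscle median was 0.33 over the 4 genes above the filter and 0.014 over all 6. At 1.5-fold in either direction, the counts over the 27 genes were 5 between the TAC arrays, 2 between the sham arrays, 4 in the STIM1KO response and 1 in the WT response. Of all genes, 14.5% reached it between the TAC arrays, 3.96% between the sham arrays, 14.4% in the STIM1KO response and 2.85% in the WT response. The 4 and the 1 of 27 in the responses are thus near the share of all genes, and the 5 between the TAC arrays all lay in 1 direction. At 2-fold either way, only Rgs5 and Fstl1 were counted, both between the TAC arrays, where 1.97% of all genes were. The counts of 0 stand beside 0.556% of all genes between the sham arrays, 1.85% in the STIM1KO response, 0.299% in the WT response and 2.15% in the difference of responses. For all genes that split moved with the scaling: at 2-fold, 62 were higher and 76 lower between the TAC arrays, or 45 and 98 with each array centred on its median. In the STIM1KO response 88 were higher and 42 lower, or 70 and 56 with centring, and in the difference of responses 101 and 50, or 80 and 69.

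Other genes of the same cell types gave mixed values. Of 18 further fibroblast genes above the filter, 2 were lower by 1.5-fold between the TAC arrays, 1 was higher, and the median was -0.081. These counts are near the 8.22% of all genes that were lower and the 6.31% that were higher, so they set the list apart from all genes in neither direction. By sign, 10 of the 18 were below 0 and 8 above between the TAC arrays, beside 48.8% of all genes below 0. Dcn, the collagen-binding proteoglycan decorin, had 1433 on STIM1KO TAC and 2406 on STIM1KO sham, against 2879 on WT TAC and 3279 on WT sham, an order like that of Cd34. Ogn, osteoglycin, differed by -0.68 between the TAC arrays. Col1a2, a chain of type I collagen, went the other way, with 317 on STIM1KO TAC and 128 on STIM1KO sham, against 190 on WT TAC and 198 on WT sham. Its partner chain Col1a1 lay below the filter and did not share this direction. It had 19.7 on STIM1KO TAC and 28.4 on STIM1KO sham, against 31.1 on WT TAC and 35.5 on WT sham. Islr, a leucine-rich repeat protein of mesenchymal cells, differed by -0.75 in the STIM1KO response and -0.11 in the WT response.

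Of 10 further pericyte genes, 3 were lower by 1.5-fold between the TAC arrays and none higher, with a median of -0.26. Of all genes 8.22% were lower and 6.31% higher by that much, with a median of 0.012. They were Rgs4, a relative of Rgs5 (-0.73), P2ry14, a receptor for UDP-sugars (-0.72), and Gja4, the gap junction protein connexin 37 (-0.60). Art3, of the ADP-ribosyltransferase family, had 2540.2 on STIM1KO TAC and 1060.2 on STIM1KO sham, against 1805 on WT TAC and 578 on WT sham, and was thus higher with TAC in both genotypes. Pdgfb, the ligand of the PDGF receptor beta, was dim, with 7.89 on STIM1KO TAC and 15.3 on STIM1KO sham, against 12.0 on WT TAC and 13.8 on WT sham. None of the 3 genes of PDGF signalling above the filter, Pdgfa, Plat and Nrp1, reached 1.5-fold in any pairwise comparison. Of all genes 2.85% to 14.5% did, by comparison. Over all 6 genes of that list, 5 were below 0 between the TAC arrays and 1 above, with a median of -0.52. Among these, the dim Pdgfb, Pdgfc and Pdgfd differed by -0.60, -0.69 and -0.74.

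Among 5 Notch pathway genes above the filter, Notch1, a receptor expressed mainly by endothelial cells in the heart, had 18.4 on STIM1KO TAC and 30.2 on STIM1KO sham, against 43.3 on WT TAC and 49.4 on WT sham. It was lower in STIM1KO by -1.23 after TAC and -0.71 after sham, and no other of the 5 reached 1.5-fold in any pairwise comparison. Abcc8, the other sulphonylurea receptor of the channel list, lay below the filter at 20.9 to 32.3.

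Of 10 further smooth muscle genes, 9 were above 0 between the sham arrays, with a median of 0.17. Of all genes 50.1% were above 0 there, with a median of 0.00061. Between the TAC arrays 6 of the 10 were above 0, with a median of 0.14, beside 51.1% of all genes. Acta2, smooth muscle alpha-actin, had 515 on STIM1KO TAC and 1094 on STIM1KO sham, against 699 on WT TAC and 1002 on WT sham. It was lower with TAC in both genotypes, by -1.09 in STIM1KO and -0.52 in WT, as Mylk was. Rgs2, a regulator of Gq signals in vascular smooth muscle, was the exception between the sham arrays, at -0.83, and differed by 0.91 in the STIM1KO response. Synpo2, an actin-binding protein of muscle, differed by -0.65 in the STIM1KO response, and Srf, serum response factor, by 0.32 between the sham arrays.

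**Figure D4:**
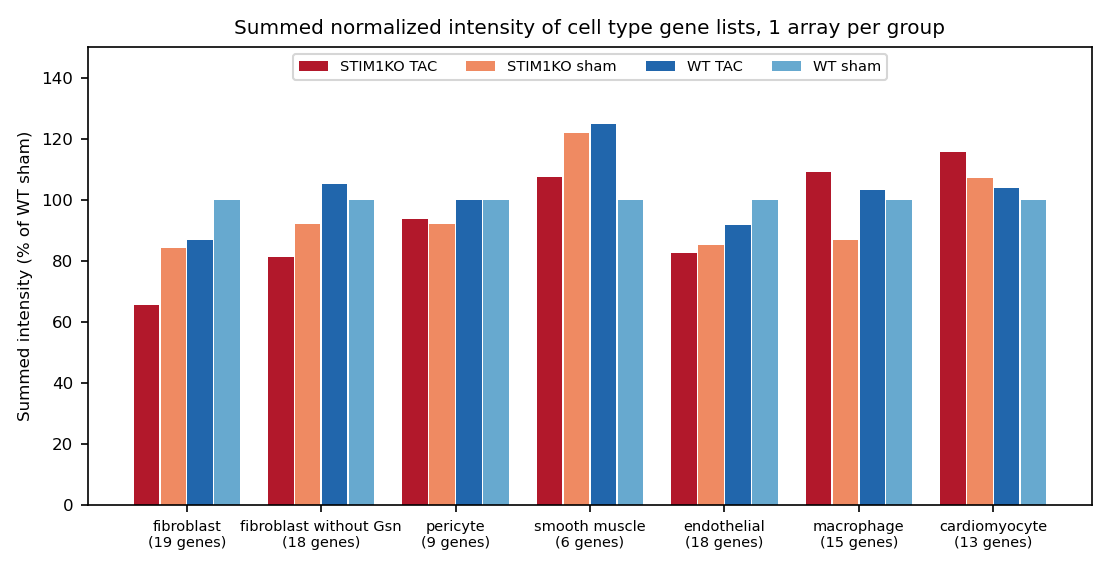
Summed normalized intensity of each gene list on the 4 arrays, as a percentage of the WT sham sum, with 1 bar for each array and no error bars because each group has 1 array. The fibroblast sum was 65.7% on STIM1KO TAC, or 81.4% without Gsn, while the pericyte sum was 93.7% and the smooth muscle sum 108%. Kcnj8 and Abcc9 made up most of the pericyte sum on STIM1KO TAC.

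Summed over its 19 genes, the fibroblast list had 9310 on STIM1KO TAC and 11918 on STIM1KO sham, against 12326 on WT TAC and 14181 on WT sham. Gsn made up much of this sum. Without it the sums were 4937 and 5586, against 6377 and 6069, so that the order of the WT arrays turned while STIM1KO TAC stayed lowest. The pericyte sum was nearly level, with 1371 on STIM1KO TAC and 1345 on STIM1KO sham, against 1463 on WT TAC and 1462 on WT sham. Kcnj8 and Abcc9, with 386 and 422, made up most of this sum on STIM1KO TAC, and the sum without them is not given. The level sum therefore does not describe the other pericyte genes. Above the filter, Pdgfrb, Rgs5 and Mcam were lowest on STIM1KO TAC, and Ebf1 and Nr2f2 were highest there. The further pericyte genes other than Art3 summed to 912 and 938 on STIM1KO TAC and STIM1KO sham, against 1105 and 1045 on WT TAC and WT sham. With Art3 these sums were 3452 and 1998, against 2910 and 1622. The smooth muscle sum was 639 on STIM1KO TAC and 724 on STIM1KO sham, against 742 on WT TAC and 594 on WT sham, lowest on WT sham.

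Markers of the other cells of the ventricle are given beside these sums. The 18 endothelial markers summed to 15245 on STIM1KO TAC and 15718 on STIM1KO sham, against 16942 on WT TAC and 18473 on WT sham. Fabp4, a fatty acid carrier, made up most of this sum, and the other 17 summed to 3848 and 3878 on STIM1KO TAC and STIM1KO sham, against 4950 and 5363 on WT TAC and WT sham. Pecam1, an endothelial adhesion molecule, had 89.9 and 134 on STIM1KO TAC and STIM1KO sham, against 145 and 173 on WT TAC and WT sham, and Cdh5, the endothelial cadherin, was dim at 3.85 to 10.3. The 15 macrophage markers with values summed to 3131 on STIM1KO TAC and 2495 on STIM1KO sham, against 2959 on WT TAC and 2872 on WT sham. The defining macrophage genes Adgre1, the F4/80 antigen, at 8.24 to 12.6, and Csf1r, the receptor of colony stimulating factor 1, at 7.93 to 73.8, had means below the filter level. The 13 cardiomyocyte markers summed to 307750 on STIM1KO TAC and 285167 on STIM1KO sham, against 276678 on WT TAC and 266296 on WT sham. Quantile normalization gives every array the same set of values, with wide steps between the top ranks. Tnnt2 thus had 38715 on both STIM1KO sham and WT TAC. Differences of the cardiomyocyte sum rest in part on such changes of rank. The endothelial sum, with and without Fabp4, was lower on both STIM1KO arrays, as Fstl1, Vim, Cd34 and Rgs5 were. Single markers differed: Gpihbp1, which anchors lipoprotein lipase, had 926 and 592 on STIM1KO TAC and STIM1KO sham, against 844 and 904 on WT TAC and WT sham, and Robo4, a guidance receptor, was also highest on STIM1KO TAC. The cardiomyocyte sum was higher there, with a median difference of -0.029 over 12 of its genes between the TAC arrays.

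The remaining marker lists were dim or short. Of 8 lymphocyte markers, 6 had values and none passed the filter, with a sum of 56.4 on STIM1KO TAC and 75.4 on STIM1KO sham, against 72.0 on WT TAC and 90.3 on WT sham. Of 8 epicardial or mesothelial markers, 4 had values, and Bnc1, a zinc finger factor of the mesothelium, was the 1 that passed. Their sum was 56.0 on STIM1KO TAC and 40.5 on STIM1KO sham, against 45.0 on WT TAC and 53.4 on WT sham, which is not the order of Wt1. The 4 adipocyte markers with values summed to 99.9 and 126 on STIM1KO TAC and STIM1KO sham, against 114 and 130 on WT TAC and WT sham, and the 4 nerve markers stayed within 179.8 to 208.6. Of 7 blood markers 2 had values, with a sum of 121 on STIM1KO TAC, against 72.0 to 76.6 on the other arrays, and no globin gene was among them.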

How the data were processed

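The series measured total RNA of the left ventricle on 1 single-channel array for each of 4 groups, assigned from the sample titles. The values the authors deposited are linear intensities, 1 for each probe on each array. Amplified RNA carried amino allyl nucleotides coupled to Cy5, per the labels' protocols. The sources used here name neither the scanner nor a background correction, nor why some cells are empty. In the deposited intensity values each array has a median of about 20.

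Probes were named through the platform annotation, with symbols updated through synonyms listed for mouse genes of GRCm38.p6. Of 23473 probes, 19607 had a value on all 4 arrays. These were taken to log2 and quantile normalized, which forces the arrays to 1 distribution. The reason was a spread of 0.101 on the log2 scale between the array medians over these 19607 probes. The probe with the highest mean stood for a gene, and genes with a mean at or above the median of gene means, 4.87, were kept (7020 of 14039). Differences of log2 values were counted at 2-fold and at 1.5-fold. With 1 array a group neither these differences nor the difference of responses can be tested. An additive fit of genotype and operation, which leaves 1 residual degree of freedom, was not run, and precision is limited by the number of arrays.

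The genes, their classes and the other lists were chosen with earlier results of these data known. All 36 genes are accounted for. Those past 1.5-fold in a pairwise comparison and the 2 brightest of each class were to be described in full, with up to 4 genes past 1.5-fold from each further list and 6 fixed markers. Col1a1, Pdgfb, Pdgfa, Plat, Nrp1, Abcc8, Srf, Bnc1, Fabp4, Gpihbp1 and Robo4, and the full values of members short of 1.5-fold, were added after their values were seen. Alternatives were median centring, values as deposited, no filter, the 75th percentile as filter level, adding an offset of 5.49 intensity units (their 25th percentile) before log2, a gene's mean over its probes, and thresholds of 1.5-fold and 3-fold. The steps were tested on simulated data. Python 3.11.15, numpy 2.4.6 and pandas 2.3.3 were used. No protein sequences were used.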

Additional observations from a re-analysis of the deposited data

Results flagged for a closer look

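In 7 genes the response to TAC had opposite signs in the genotypes and differed by 1.5-fold or more. Whatever the signs of their responses, 5.94% of all genes were lower by that much in this difference and 8.16% higher. With 1 array a group this difference was not tested. The STIM1KO response less the WT response was -0.90 for Mcam, -0.83 for Rgs5, -0.79 for Serping1, -0.67 for Smtn, -0.64 for Vim and -0.63 for Fstl1, and 0.83 for Ebf1. For Fstl1 the WT response was 0.0082 and for Rgs5 0.084, so their opposite signs rest on values near 0.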

How the results depend on the processing

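Of 135 log2 differences of the 27 genes, 19 were at 1.5-fold. All 19 kept their sign under the alternatives run (median centring, values as deposited, offset and mean over probes), and 16 stayed at 1.5-fold. The exceptions were the WT response of Mylk and 2 values of Ebf1, its STIM1KO response and its difference of responses, both with the mean over probes. The sign turned for 12 differences, none larger than 0.12. Centring each array on its median moved the pericyte median to 0.081 in the STIM1KO response (main 0.18) and 0.063 between the TAC arrays (main 0.16). In the difference of responses the pericyte median changed sign, to -0.024 (main 0.088), and the medians were -0.21 for fibroblast (main -0.089) and -0.59 for smooth muscle genes (main -0.47). With no filter on dim genes, the WT response had a median of -0.16 for pericyte (main 0.030) and 0.014 for smooth muscle genes (main 0.33), and the difference of responses 0.23 for pericyte genes. The smooth muscle median was then 0.47 after sham and -0.054 after TAC. With the filter at the 75th percentile, the smooth muscle median between the sham arrays was 0.31, and the fibroblast median was -0.41 for TAC and -0.23 for the difference of responses. Fewer or more genes enter the medians when the filter changes. Under centring the median over all genes moved down as well. It was -0.074 in the STIM1KO response (main -0.0045) and -0.047 between the TAC arrays (main 0.012). In the difference of responses it was -0.10 (main -0.019). The cause of the moves under centring was not tested. The main count at 2-fold was 2 between the TAC arrays and 0 in the other comparisons. No test was run, so no unadjusted p exists for these counts. With no filter it was 3 between the TAC arrays (Notch3 higher, Rgs5 and Fstl1 lower), 1 in the STIM1KO response (Notch3) and 2 in the difference of responses (Notch3 and Tbx18), where 5.8% and 8.59% of all unfiltered genes were at 2-fold. At 1.5-fold the counts were 5 after TAC, 2 after sham, 4 in the STIM1KO response, 1 in the WT response and 7 in the difference of responses. The shares of all genes at 1.5-fold are given above. At 3-fold the count after TAC was 0. Dim signal limits 7 of the 34 genes. No paired analysis was possible because each group has 1 array.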
